A study of Mus musculus with 4 samples.

Results

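Gained intergenic regions are stretches of chromatin between genes that carried an ATAC-seq peak in both Snf5 CKO libraries and in neither Control library. They were chosen by merging the peaks of the 4 libraries on chromosomes 1 to 19 wherever peaks overlapped by at least 1 bp. A merged region was kept as a member when both Snf5 CKO lists and no Control list had a peak in it, when it overlapped no protein-coding gene, and when it lay over 1 kb from every gene start and end. This gave 1885 regions, out of 25957 intergenic and 62815 merged regions on these chromosomes. Gained regions made up 7.26% of the intergenic merged regions and 4.97% of all merged regions. These shares come from the values that chose the members, so nothing is read from them. A region is called kept below when all 4 libraries had a peak and lost when both Control libraries and neither Snf5 CKO library had one. There were 4239 kept (16.3%) and 1692 lost (6.52%) regions among the intergenic ones.

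The study compared germ cells of conditional Snf5 knockouts (labelled Snf5 CKO, 2 libraries) with Control germ cells (2 libraries). All 4 libraries came from female embryos of strain C57BL/6 at embryonic day 15.5, and in both groups the cells were those that an Oct4-EGFP reporter marked in sorting. The labels name neither the Cre that deletes Snf5 nor the Oct4 DNA that the reporter carries. They also do not say whether the replicates were separate animals, so the spread between libraries may be technical.

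Snf5, the product of Smarcb1, is a core subunit of the SWI/SNF complex, which uses ATP to slide or evict nucleosomes. SWI/SNF is known to keep many enhancers open, and most enhancers lie away from promoters, some of them in long stretches without genes known as gene deserts. Female germ cells at this stage have left the pluripotent state of the primordial germ cell and are in meiotic prophase.

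The Snf5 CKO libraries held 45422 and 28625 peaks and the Control libraries 39465 and 36730. Since the depth of sequencing is not known, lack of a peak does not show closed chromatin, and a gene end is called open where it has a peak. Smarcb1 had a peak at a gene end in neither Snf5 CKO library and in both Control libraries. Of 10 germ cell marker genes, 9 had a peak at a gene end in each Snf5 CKO library, and all 10 did in each Control library. Markers of ovarian supporting cells were open in 6 of 8 genes in every library. Stromal markers were open in 4 and 2 of 8 genes in Snf5 CKO, against 5 and 5 in Control, with no peak at Col3a1, Dcn and Pdgfra in any library. Endothelial markers were open in 1 and 1 of 5 genes in Snf5 CKO, against 2 and 2 in Control, and Cdh5 and Tie1 had none in any library. Blood markers on the autosomes were open in 2 and 2 of 6 genes in Snf5 CKO, against 2 and 3 in Control. The lists of these female cells also held peaks on the Y chromosome, 209 and 150 in Snf5 CKO and 83 and 107 in Control. Whether any of these differences bears on the gained regions was not tested.

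The only sequence at hand for the members is that of annotated promoters, the 300 bases from 250 before to 50 after a gene's start in RefSeq GRCm38.p6. Each of 24 members (1.27%) touched 1 such window, in every case that of a long non-coding RNA gene. Kept intergenic regions touched such a window in 5.12% of cases and lost ones in 4.26%. These shares also depend on width, with medians of 442 bp for gained, 790 bp for kept and 537 bp for lost regions. Many of the 24 windows resembled one another or windows elsewhere over part of their length. Likeness was called where at least 100 bases aligned at 70% identity or more. By this measure 16 of the 24 windows (66.7%) resembled at least 1 other window on the autosomes. The share was 20.6% of 253 windows in kept, 9.89% of 91 in lost and 22.6% of 705 in all intergenic regions. At least 5 like windows were found for 14 of the 24 (58.3%), against 10.7% in kept, 6.59% in lost and 13.2% in all intergenic regions. Windows of Gm27204 and Gm40634 had the most, with 140 and 116 like windows among 31365. Whole windows were compared, and only 38 and 155 of the 300 bases of these 2 lay in their gained regions. The like bases of a window may therefore lie outside the member. Likeness among windows was looked for after the other values had been seen and was given no test.

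Among themselves the 24 windows formed 5 like pairs, which held 10 of the windows (41.7%), while 22 of the windows in kept regions (8.7%) and 0 of those in lost regions were in such pairs. The number of possible pairs grows with the number of windows, so the 24 windows had the fewest. The first 2 pairs below are printed because their members are nearly identical although they lie at separate sites. Gm35360 and Gm32296, on chromosomes 14 and 12, shared 241 of 245 aligned bases (97.2% identity with gaps counted). Gm46428 and Gm26715, both on chromosome 13, shared 247 of 251 aligned bases on opposite strands (98% identity). The window of Gm36038 is printed because it touches 1 of the 3 gained regions nearest to Tfap2c, and that of Gm20756 because it had the highest fold enrichment of the 24 in its weaker list, 5.45 in Snf5 CKO 2 beside 9.41 in Snf5 CKO 1. Capitals mark the bases covered by peaks of both Snf5 CKO libraries. Sequences are from RefSeq and read 5′ to 3′ on the gene's strand.
Gm35360, chr14:47813985-47814284, plus strand: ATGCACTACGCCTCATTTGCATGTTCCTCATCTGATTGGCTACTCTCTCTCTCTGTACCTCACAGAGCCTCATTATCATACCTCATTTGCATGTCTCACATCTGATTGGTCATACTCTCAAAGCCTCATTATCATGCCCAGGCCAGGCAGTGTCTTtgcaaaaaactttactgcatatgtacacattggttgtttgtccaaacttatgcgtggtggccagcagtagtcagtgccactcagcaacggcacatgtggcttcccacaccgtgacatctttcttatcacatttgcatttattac
Gm32296, chr12:85537920-85538219, plus strand: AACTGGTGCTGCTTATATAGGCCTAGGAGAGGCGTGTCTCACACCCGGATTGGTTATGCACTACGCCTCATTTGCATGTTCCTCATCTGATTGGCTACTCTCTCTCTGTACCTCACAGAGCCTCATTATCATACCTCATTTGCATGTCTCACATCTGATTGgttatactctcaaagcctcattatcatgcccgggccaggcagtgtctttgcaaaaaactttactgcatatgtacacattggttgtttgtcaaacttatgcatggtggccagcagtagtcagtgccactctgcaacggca
Gm46428, chr13:66519416-66519715, plus strand: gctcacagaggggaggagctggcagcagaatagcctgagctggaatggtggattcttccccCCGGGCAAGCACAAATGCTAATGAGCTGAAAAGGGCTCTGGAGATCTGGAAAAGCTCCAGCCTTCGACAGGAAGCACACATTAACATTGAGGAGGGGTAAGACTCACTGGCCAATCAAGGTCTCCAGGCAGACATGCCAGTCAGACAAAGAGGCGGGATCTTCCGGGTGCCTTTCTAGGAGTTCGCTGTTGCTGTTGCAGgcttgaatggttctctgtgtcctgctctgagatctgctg
Gm26715, chr13:66349156-66349455, plus strand: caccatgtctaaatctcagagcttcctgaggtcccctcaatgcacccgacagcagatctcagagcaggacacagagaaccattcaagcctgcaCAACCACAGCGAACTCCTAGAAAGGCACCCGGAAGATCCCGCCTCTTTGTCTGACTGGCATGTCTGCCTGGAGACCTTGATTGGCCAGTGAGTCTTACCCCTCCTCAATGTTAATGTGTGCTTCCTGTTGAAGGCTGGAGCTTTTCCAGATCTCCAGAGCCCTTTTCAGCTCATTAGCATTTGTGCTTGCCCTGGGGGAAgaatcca
Gm36038, chr2:172576866-172577165, plus strand: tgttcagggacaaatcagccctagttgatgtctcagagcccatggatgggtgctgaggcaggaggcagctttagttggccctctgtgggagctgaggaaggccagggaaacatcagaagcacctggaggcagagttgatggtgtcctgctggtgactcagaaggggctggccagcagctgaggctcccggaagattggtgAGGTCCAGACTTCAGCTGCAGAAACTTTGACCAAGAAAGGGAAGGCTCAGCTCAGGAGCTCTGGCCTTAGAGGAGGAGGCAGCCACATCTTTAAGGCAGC
Gm20756, chr6:25931176-25931475, plus strand: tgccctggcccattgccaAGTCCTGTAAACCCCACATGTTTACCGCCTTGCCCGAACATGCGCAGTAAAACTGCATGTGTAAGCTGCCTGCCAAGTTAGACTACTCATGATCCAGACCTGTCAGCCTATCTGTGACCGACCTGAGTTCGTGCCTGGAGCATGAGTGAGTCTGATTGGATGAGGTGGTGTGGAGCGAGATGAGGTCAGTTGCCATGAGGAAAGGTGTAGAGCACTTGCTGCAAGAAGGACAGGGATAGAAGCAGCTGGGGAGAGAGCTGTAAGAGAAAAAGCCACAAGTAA

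The Gm35360 and Gm32296 windows held the octamer ATGCAAAT, the motif of POU factors such as Oct4, at 3 and 2 places counted on both strands. They were the only windows of the 24 with it, and 1.75% of all autosomal promoter windows hold it. Since the 2 windows are nearly identical, they do not count as separate cases beside that share. The last place in the Gm35360 window lay past its gained region, which ended at 47814177. Fold enrichments of the 2 gained regions were 3.37 and 6.18 in Snf5 CKO 1 and 2 at Gm35360, and 3.58 and 3.96 at Gm32296. The other 3 like pairs were AA388235 on chromosome 17 with Gm34585 on chromosome 13 (84.5% identity over 206 bases), A630077J23Rik on chromosome 4 with Gm34581 on chromosome 12 (91.6% over 153 bases), and Gm27204 on chromosome 9 with Gm40634 on chromosome 10 (83.6% over 156 bases). The 16 windows with like sequences elsewhere had median fold enrichments of 3.96 and 4.0 in Snf5 CKO 1 and 2, and the 8 without had 4.46 and 3.65. How reads that match several copies were placed is not given in the sources used here, and its part in these peaks was not tested.

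The other motifs searched were in 0 to 2 of the 24 windows. The AP-1 motif TGANTCA was in 1 window, that of Gm36038 beside Tfap2c, and in 7.85% of all windows. The GATA motif AGATAA was in 2 of the 24 windows and in 11.2% of all windows. The SOX motif CATTGT was in 0 of the 24 and in 12.2% of all, and the AP-2 motif GCCNNNGGC was in 1 of the 24 and in 16.7% of all. Both strands were searched for each motif.

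Most members were short regions of moderate strength. Their median width was 442 bp, with a range of 202 to 1733 bp, while kept intergenic regions had a median width of 790 bp and lost ones of 537 bp. Fold enrichment over the local background, the authors' own value for each peak, had a median of 4.14 in Snf5 CKO 1 (range 2.09 to 10.09) and of 3.94 in Snf5 CKO 2 (range 2.12 to 8.56). The member median stood at percentile 60.4 of all intergenic peaks in Snf5 CKO 1 and at percentile 41.3 in Snf5 CKO 2. Snf5 CKO 1 had the higher fold at 1122 members (59.5%) and the longer peak at 1433 (76%). The folds of the 2 lists ranked alike across members only in part (Spearman's rho 0.50 over 1885 regions, which share their libraries). In 1019 members (54.1%) the shorter of the 2 peaks lay wholly inside the longer, and in 35 the peaks shared fewer than 100 bp.

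**Figure D1:**
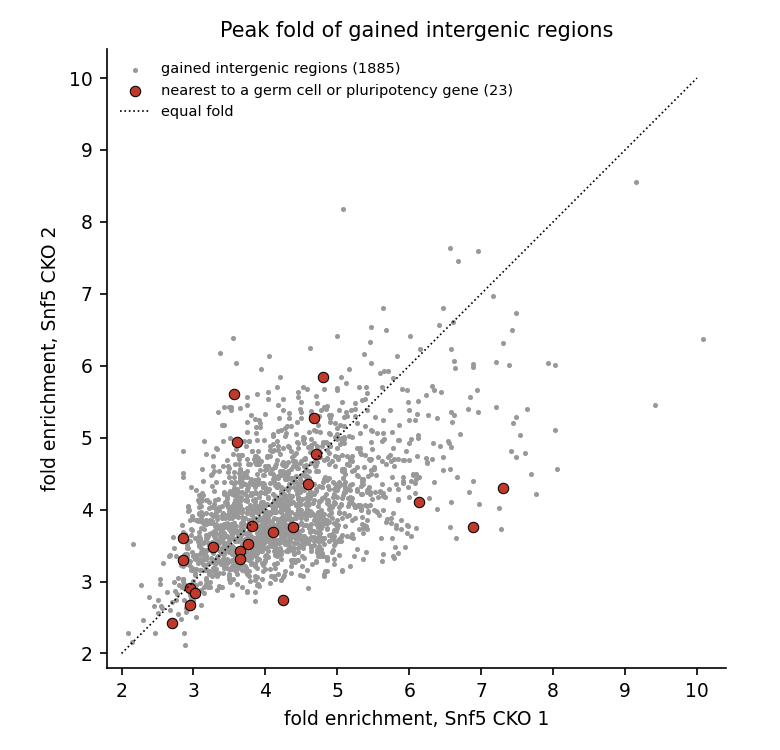
Fold enrichment of each of the 1885 gained intergenic regions in Snf5 CKO 1 (horizontal) and Snf5 CKO 2 (vertical), with the 23 regions nearest to a germ cell or pluripotency gene in red and a dotted line at equal fold. Most points lie between 3 and 5 on both axes, and 102 members exceed 5 in both lists.

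The −log10 q of members had a median of 4.02 in Snf5 CKO 1 and of 3.14 in Snf5 CKO 2. The lowest values of any peak in these 2 lists were 1.0 and 1.02. The −log10 q was at least 3 in both lists at 810 members (43%) and at least 10 in both at 12. The lowest values of members were 1.05 in Snf5 CKO 1, at regions nearest to Erbb4 and Tcl1. In Snf5 CKO 2 they were 1.15 and 1.17, at regions nearest to Prdm14 and Nanog. At the 1 kb limit from a gene, the members just inside lay 1026 bp from Zfp426 and 1048 bp from Dyrk3. A gained region just outside lay 1000 bp from Borcs6. The nearest peak of either Control library lay at a median of 24043 bp from a member, and 75 members (3.98%) had one within 1 kb without overlap.

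The 10 members with the highest fold in their weaker list lay on 6 chromosomes. The strongest, at chromosome 11, 103990131 to 103990473, lay 4781 bp downstream of Arf2, a gene for a small GTPase of vesicle traffic, with folds of 9.15 and 8.56 in Snf5 CKO 1 and 2. A region 48.9 kb upstream of Nkain2, which encodes a partner of the sodium pump, had 7.16 and 6.97. A region 320 kb from Rspo3, which encodes a secreted enhancer of Wnt signalling, had 6.95 and 7.6 and the largest −log10 q in Snf5 CKO 1 among all members, 28.2. Folds above the member medians in both lists follow from how these sites were chosen. The others were nearest to Fam98a, Gm14410, the zinc finger gene Zfp808, the LIM-domain gene Csrp2, the sperm tail gene Odf1, the olfactory receptor gene Olfr1297 and Arrdc3, with weaker folds of 6.42 to 6.73. The Fam98a region lay 560 kb from the gene in an interval of 2.65 Mb, and the Arrdc3 region 160 kb from the gene in one of 2.68 Mb.

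Around genes of primordial germ cells and pluripotency, a larger share of the intergenic regions was gained than around genes in general. Of the 135 intergenic regions nearest to a gene of this list, 23 were gained (17.0%), against 7.26% of all intergenic regions. Put as a share of each class, the list's genes were nearest to 1.22% of gained, 0.401% of kept, 0.532% of lost and 0.520% of all intergenic regions. Of the list's 25 autosomal genes, 23 were nearest to at least 1 intergenic region and 12 to a gained one. The list and these values rest on the same peaks that chose the members, so they are a description without a test. The 23 members had median folds of 3.76 in Snf5 CKO 1 and 3.69 in Snf5 CKO 2, a little under the 4.14 and 3.94 of all members. Their median distance to the gene was 27.4 kb, against 39.9 kb for all members. A larger share of cells with an open region and a more open region in each cell cannot be told apart in these bulk libraries.

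**Figure D2:**
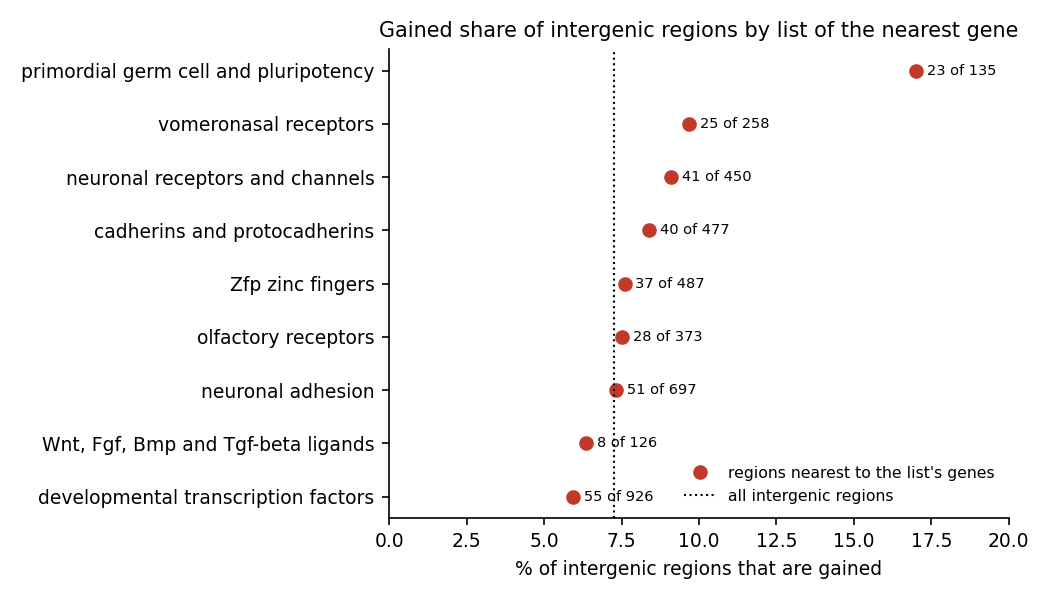
Percentage of intergenic regions that were gained, by the list of the nearest protein-coding gene, for the 9 lists nearest to at least 100 intergenic regions, with gained and total regions beside each point. The dotted line marks the 7.26% of all intergenic regions; the germ cell and pluripotency list stands at 17.0% and the other 8 lists between 5.94% and 9.69%.

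Prdm14 and Sox2 had 4 gained regions each, the most in the list. Prdm14 encodes a transcriptional regulator needed to specify primordial germ cells. Its gained regions, on chromosome 1 between 13079107 and 13132588, lay 4.11, 17.2 and 33.7 kb from one gene end and 4.88 kb from the other. Their folds in Snf5 CKO 1 and 2 were 4.39 and 3.76 at 4.11 kb, 2.95 and 2.91 at 17.2 kb, 2.95 and 2.67 at 33.7 kb, and 4.7 and 4.77 at 4.88 kb. The 10 intergenic regions nearest to Prdm14 included 4 gained, 0 kept and 2 lost ones, and the lost regions had folds of 2.81 to 3.26 in Control 1 and 2.78 to 3.28 in Control 2. A gene end of Prdm14 itself had a peak in all 4 libraries.

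Sox2 encodes a transcription factor of pluripotent and early germ cells, and its gained regions all lay downstream, on chromosome 3. They lay 45.1, 105, 109 and 151 kb from the gene, in a gene-free interval of 1.1 Mb. The nearest had folds of 7.3 and 4.3 in Snf5 CKO 1 and 2, the highest Snf5 CKO 1 value in the list. The pair at 105 and 109 kb lay 2.92 kb apart, with folds of 3.02 and 2.84 at the nearer and 3.65 and 3.32 at the farther. The region at 151 kb had folds of 2.86 and 3.61. Sox2 also had 5 kept, 4 lost and 26 other intergenic regions, and 39 in all.

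Tfap2c and Tcl1 had 3 gained regions each. Tfap2c encodes transcription factor AP-2 gamma, which acts in germ cell specification, and at least 1 of its gene ends had a peak in both Snf5 CKO libraries, with none at either end in Control. Its gained regions, on chromosome 2, had folds of 4.1 and 3.69 at 28.6 kb, 6.88 and 3.76 at 18.3 kb, and 6.14 and 4.1 at 114 kb in Snf5 CKO 1 and 2. The region at 18.3 kb is the one at the start of Gm36038. Tcl1 encodes a coactivator of the kinase Akt that is active in embryonic stem cells. Upstream of Tcl1, on chromosome 12, gained regions 26 and 27.4 kb away had folds of 3.61 and 4.94 and of 3.76 and 3.52, and one at 77.6 kb had 2.86 and 3.3. The first 2 lay 834 bp apart.

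**Figure D3:**
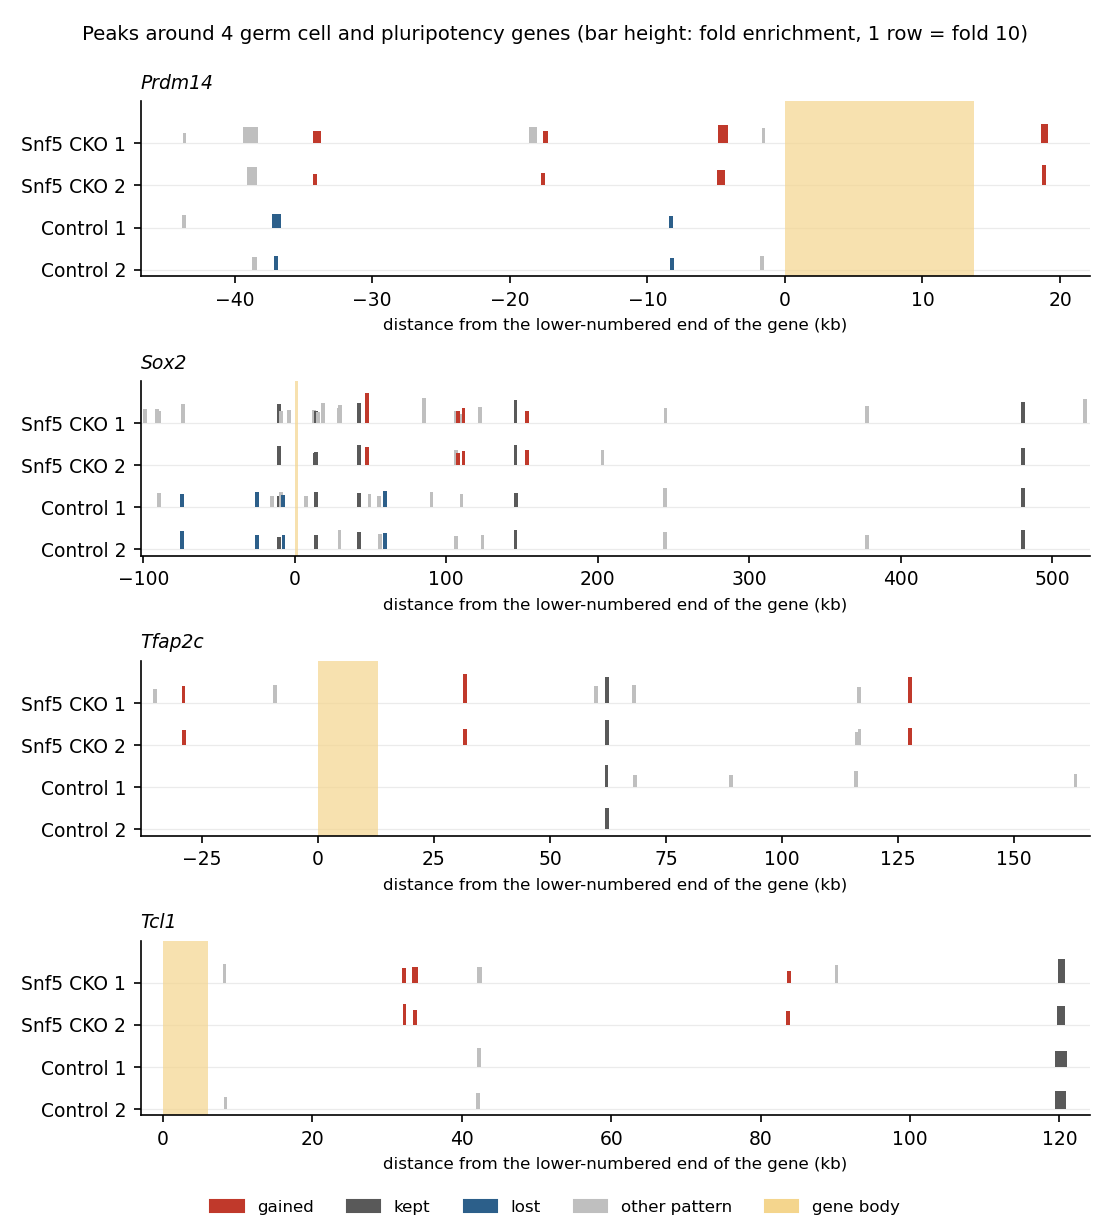
Peaks of the 4 libraries in the intergenic regions nearest to Prdm14, Sox2, Tfap2c and Tcl1, by distance in kb from the lower-numbered gene end, with Snf5 CKO rows above Control rows; bar height is fold enrichment and the yellow band is the gene, whose own peaks are not drawn. Red bars, the gained regions, stand in both Snf5 CKO rows and in no Control row, 4 each at Prdm14 and Sox2 and 3 each at Tfap2c and Tcl1.

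The neighbouring genes Dppa3 and Nanog on chromosome 6 had 3 gained regions between or just past them. Dppa3 encodes Stella, a maternal factor of germ cells and early embryos, and Nanog encodes a homeodomain factor of pluripotency. Regions 2.64 and 24.5 kb from Dppa3 had folds of 3.81 and 3.77 and of 4.8 and 5.85 in Snf5 CKO 1 and 2. A region 1.24 kb downstream of Nanog had folds of 4.24 and 2.74, and its −log10 q in Snf5 CKO 2 was 1.17. On the other side of Dppa3, a gained region 5.64 kb from Gdf3, a growth factor gene of the signalling ligand list, had 3.57 and 4.35.

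The other 6 genes of the list had 1 gained region each. The region of Pou5f1, which encodes Oct4, lay 7.01 kb upstream at chromosome 17, 35498760 to 35499026, with folds of 2.7 and 2.42 in Snf5 CKO 1 and 2. The region of Prdm1, the gene of the germ cell repressor Blimp1, was the longest at 1581 bp, with 3.27 and 3.48. Kit, which encodes the receptor for stem cell factor, had one 96.1 kb upstream with 4.68 and 5.28. Dazl, the gene of a germ cell RNA-binding protein, had one 30.2 kb downstream with 3.64 and 3.42. Dppa4 had 3.57 and 5.61 at 57.9 kb and Dppa5a had 4.59 and 4.35 at 8.65 kb, both genes named for their link to pluripotency. The Dppa5a region lay 16.3 kb from a member nearest to Ooep, a maternal-effect gene of oocytes, which had 3.16 and 3.31. No gained region was nearest to Nanos3, Klf4, Zfp42 or Sall4, genes of the list with 6, 5, 5 and 4 intergenic regions. The same held for Klf2, Lin28a, Lin28b, Tbx3, Utf1, Esrrb and Dppa2, with 1 or 2 intergenic regions each.

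The larger share at these genes changed more without Snf5 CKO 2 than without Snf5 CKO 1. Without Snf5 CKO 2, when a peak in Snf5 CKO 1 alone was enough, the list's genes were nearest to 55 of 9871 gained regions (0.557%), against 0.532% of all intergenic regions, so the contrast was nearly gone. Without Snf5 CKO 1 they were nearest to 26 of 2754 (0.944%), against 0.58%. When each list was limited to peaks with a −log10 q of 3 or more the values were 15 of 1142 (1.31%) against 0.629%, and with this limit for presence in Snf5 CKO alone 12 of 810 (1.48%) against 0.520%. With lists of the same length they were 21 of 1648 (1.27%) against 0.606%. With non-coding and other RefSeq genes also used as neighbours they were 7 of 1533 (0.457%) against 0.141%.

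Meiotic genes had gained regions in about the share of all intergenic regions, 2 of the 25 nearest to them (8.0% against 7.26%). They lay 44.1 kb from Prdm9, which encodes the methyltransferase that places meiotic recombination sites, with folds of 2.95 and 3.21 in Snf5 CKO 1 and 2, and 18.7 kb from Ythdc2, a gene for an RNA helicase of meiotic entry, with 2.91 and 3.31. Genes of germline genome defence had 1 member among 18 intergenic regions (5.56%), 44.8 kb from Morc1, a gene of transposon silencing in the male germ line, with 5.52 and 5.29. Subunits of SWI/SNF had 1 among 39 (2.56%), 158 kb from Smarca2, which encodes the ATPase Brm, with 4.44 and 5.22.

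Markers of other cell types of the ovary had 2 to 4 members a list, set here against the 7.26% of all intergenic regions. Supporting cell genes had 2 (4.44% of 45 regions), in a gene-free interval of 0.556 Mb, nearest to Irx3 with folds of 4.64 and 4.65 and to Irx5 with 4.47 and 4.35. Genes of stroma and mesenchyme had 4 (7.14% of 56), nearest to Col1a2, Dcn, Lum and Twist2, and the Lum region had 5.47 and 6.54. Endothelial and blood genes had 2 (4.17% of 48), beside Cdh5 and Pecam1, with folds of 3.21 to 4.17. Genes of the p53 response had 2 (5.41% of 37), beside Ccng1 and the cell cycle inhibitor gene Cdkn1a. AP-1 and immediate early genes had 1 (2.86% of 35), beside Ier2, although they had 19 kept regions.

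Genes of neuronal and sensory function made up a larger part of the neighbours, in about their share of all intergenic regions. Neuronal adhesion genes were nearest to 51 members (2.71%), against 2.69% of all intergenic regions. Of these 51 members, 98.0% lay in gene-free intervals of at least 500 kb. That share is not given here for the other intergenic regions nearest to these genes, so it is not read as a trait of members. Cadherin and protocadherin genes, for calcium-dependent cell adhesion, were nearest to 40 members (2.12%), against 1.84% of all. Neuronal receptor and channel genes had 41 members (2.18% against 1.73%), among them 2 each at Cacna2d1, Grin2a, Htr7 and Kcna4. Olfactory receptor genes had 28 (1.49% against 1.44%), with 2 each at Olfr24 and Olfr987. Vomeronasal receptor genes had 25 (1.33% against 0.994%), with 2 each at Vmn1r234, Vmn1r72, Vmn2r87 and Vmn2r96. The olfactory and vomeronasal lists hold 1104 and 354 autosomal genes. Whether reads at these members match several sites was not tested.

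Developmental transcription factor genes took a smaller part of gained than of lost regions. They were nearest to 55 members (2.92%), against 3.47% of kept, 6.26% of lost and 3.57% of all intergenic regions. Prdm14, Sox2 and Tfap2c belong to this list too. Outside the germ cell list, Foxb1, a forkhead gene, and Msx1, a homeobox gene, had 3 members each. The 3 Foxb1 regions stood within 2652 bp of each other, 86.6 to 88.5 kb from the gene. Zinc finger genes of the Zfp type had 37 members (1.96% against 1.88% of all), with 4 at Zfp808 and 3 each at Zfp213 and Zfp64. Signalling ligand genes had 8 (0.424% against 0.485% of all), with 2 at Rspo3. Collagen genes had 2 (0.106% against 0.204%), and ribosomal protein genes had 3 (0.159% against 0.358%), with 2 at Rps29.

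The state of the nearest gene itself was much like that around other intergenic regions. The nearest gene had a peak at an end in all 4 libraries for 59.0% of members, against 59.5% of kept, 68.1% of lost and 61.2% of all intergenic regions. It had no such peak in any library for 28.4% of members, against 27.3%, 17.1% and 25.8%. For 8 members (0.424%) the nearest gene had a peak at its ends in both Snf5 CKO and neither Control library, against 0.377% of kept and 0.37% of all intergenic regions. Where the strand was known, 769 members lay upstream and 716 downstream of the nearest gene, with the side unknown for 400.

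Gained regions lay in gene deserts in about the share of all intergenic regions, as kept ones did, while fewer of the lost ones did. Their median distance to the nearest protein-coding gene was 39893 bp, against 38581 bp for kept, 19110 bp for lost and 35119 bp for all intergenic regions. In gene-free intervals of at least 500 kb lay 640 members, or 34.1% (exact binomial 95% interval 32.0 to 36.3) of those with a gene on both sides, which 9 members lacked. The share was 35.6% (34.1 to 37.1) for kept, 13.6% (12 to 15.3) for lost and 32.5% (32.0 to 33.1) for all intergenic regions. Such intervals hold 50.4% of the 1412 Mb of intergenic bases, and 334 of the 600 intervals held a member. The intervals treat regions as independent and cover counting error only. With all RefSeq genes, non-coding ones included, the median distance was 15556 bp and the share in such intervals 6.92%.

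Per Mb, gained regions numbered 2.23 in intervals under 50 kb, 1.84 in those of 50 to 200 kb and 1.36 in those of 200 to 500 kb. They numbered 0.989, 0.784 and 0.93 in intervals of 500 kb to 1 Mb, of 1 to 2 Mb and over 2 Mb. Lost regions thinned out far more, with 3.01 per Mb in intervals under 50 kb and 0.0617 in those over 2 Mb, where there were 211 gained and 14 lost regions. Gained regions made up 6.82% to 8.17% of the intergenic regions in each class of interval. Their median fold differed little between classes, 4.07 to 4.22 in Snf5 CKO 1 and 3.88 to 4.05 in Snf5 CKO 2.

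**Figure D4:**
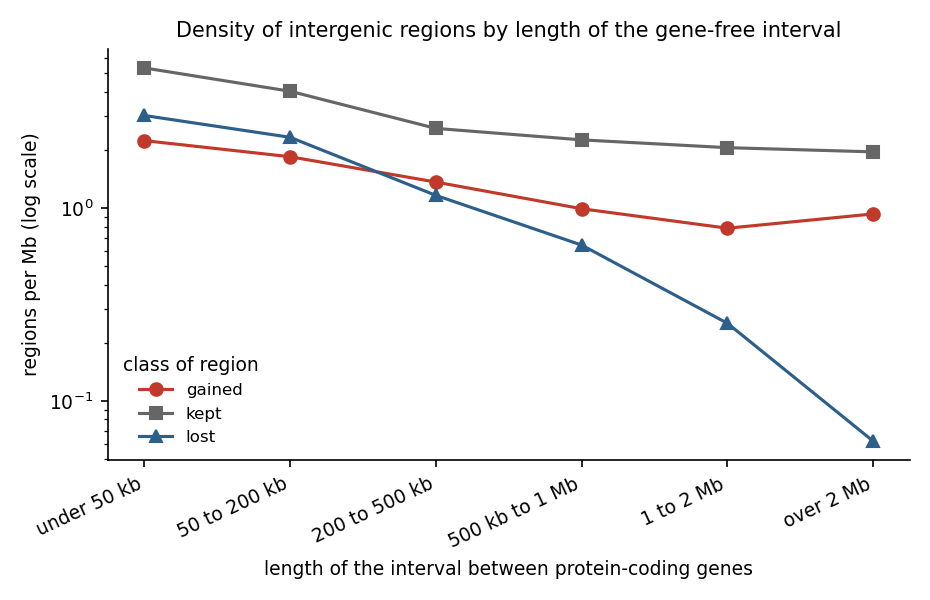
Intergenic regions per Mb (log scale) by length of the interval between protein-coding genes, for gained, kept and lost regions. Gained regions go from 2.23 to 0.93 per Mb between the shortest and the longest intervals, kept regions from 5.31 to 1.95 and lost regions from 3.01 to 0.0617.

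Regions found in a single library also differed by genotype in this respect. Of intergenic regions with a peak in Snf5 CKO 1 alone 42.8% lay in intervals of at least 500 kb, and of those in Snf5 CKO 2 alone 44.6%, against 21.5% in Control 1 alone and 21.5% in Control 2 alone. The regions in Snf5 CKO 1 alone numbered 7968 and those in Snf5 CKO 2 alone 802, so members made up 70.2% of the 2687 intergenic regions that Snf5 CKO 2 had without Control, and about 19% of the 9853 that Snf5 CKO 1 had. The regions in Snf5 CKO 1 alone had a median fold of 3.54 and a median −log10 q of 2.37, below the 4.14 and 4.02 that members had in that list.

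Over whole libraries, a larger part of the peaks was intergenic in Snf5 CKO, 41.9% and 33.5%, than in Control, 31.5% and 31.4%. The groups did not overlap, but the Snf5 CKO libraries stood farther from each other than Snf5 CKO 2 stood from Control. The means were 37.7% ± 5.97 and 31.5% ± 0.0967 (SD, n = 2 each), a difference of 6.24 percentage points (two-sided exact permutation test, p = 0.33, the smallest that 2 against 2 allows). Without Snf5 CKO 1 the difference was 2.02 points and without Snf5 CKO 2 it was 10.5.

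Of the intergenic peaks, 37.0% and 36.0% lay in gene-free intervals of at least 500 kb in Snf5 CKO, against 25.9% and 27.5% in Control. These groups did not overlap and their difference of 9.83 points was larger than the spread within either group (two-sided exact permutation test, p = 0.33). With lists of the same length the shares were 32.7% and 36.0% in Snf5 CKO and 28.2% and 29.2% in Control, a difference of 5.67 points. The difference was 5.18 points with a −log10 q of 3 or more in each list and 3.5 points with all RefSeq genes. Median fold of intergenic peaks was 3.89 and 4.12 in Snf5 CKO and 3.71 and 3.77 in Control, a difference of 0.263 (two-sided exact permutation test, p = 0.33), and of 0.148 without Snf5 CKO 2. With lists of the same length the median folds were 4.52 and 4.12 in Snf5 CKO and 4.14 and 4.07 in Control, so the groups overlapped (two-sided exact permutation test, p = 0.667). The gained regions are part of these peaks, so none of the 3 comparisons is independent of how the members were chosen.

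**Figure D5:**
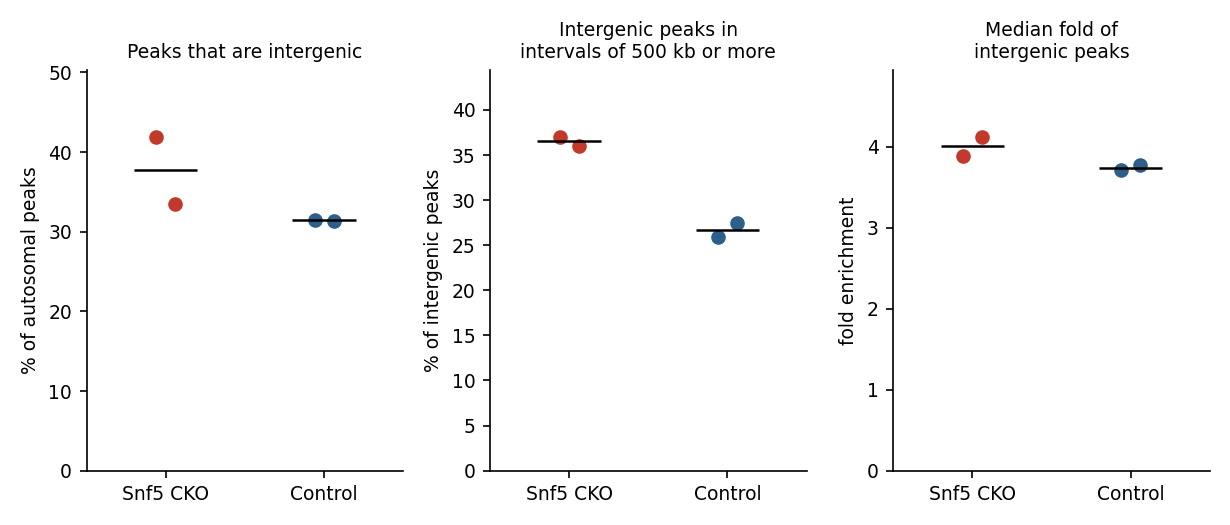
Share of autosomal peaks that are intergenic, share of intergenic peaks in gene-free intervals of at least 500 kb, and median fold of intergenic peaks, 1 point per library with the group mean as a line. Snf5 CKO points (left) lie above Control points (right) in all 3 panels, by 6.24 points, 9.83 points and 0.263 between means; with lists of the same length, not drawn, the median folds overlap.

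The 5 members farthest from any gene lay in gene-free intervals of 3.6 to 4.54 Mb. The farthest was 2.19 Mb from Pik3c3, a lipid kinase gene, on chromosome 18, with folds of 4.77 and 3.96 in Snf5 CKO 1 and 2. Next came a region 2.04 Mb from Pcdh9, a protocadherin gene, with 4.37 and 3.71, and one 1.94 Mb from Aga, a lysosomal enzyme gene, with 4.5 and 3.58. Regions 1.87 Mb from Cntnap5b, a neurexin family gene, and 1.78 Mb from Stim2, a calcium sensor gene, had 4.3 and 3.78 and 3.11 and 3.74.

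Few intervals or genes had many members. The 3 intervals with most were those between Pabpc4l and Pcdh18, with 9 members over 3.3 Mb, between Lrrc4c and Iftap, with 8 over 3.93 Mb, and between Pcdh20 and Pcdh9, with 7 over 4.54 Mb. The last was tied with the intervals from Ncam2 to Mrpl39 and from Nmbr to Cited2. The Pabpc4l to Pcdh18 interval also held 4 kept and 0 lost regions, and the highest member there had a fold of 8.02 in Snf5 CKO 1. The members had 1440 different nearest genes, of which 1145 had 1 member and 98 had 3 or more. Pcdh9 had 8 members, Cox7c, a respiratory chain subunit gene, had 7, Cntnap5b and Iftap had 6 each, and Pabpc4l, Cadm2, Pcdh18, Cntnap5a, Dsel and Smarcad1 had 5 each.

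Members were mostly scattered one by one. The median distance to the next gained intergenic region was 282479 bp. Within 50 kb, 437 members (23.2%) had one, against 28.4% of kept and 29.5% of lost regions among their own kind. Such shares also depend on the number of regions in a class, 1885 gained, 4239 kept and 1692 lost. Linking neighbours within 50 kb left 1448 members alone and gave 158 pairs, 31 runs of 3 and 6 longer runs. A kept region of any place lay within 50 kb of 964 members (51.1%), against 69.1% of lost intergenic regions. A lost region of any place lay within 50 kb of 312 members (16.6%), against 20.7% of kept intergenic regions. Without Snf5 CKO 2, when 9871 regions counted as gained, 53.1% had a gained neighbour within 50 kb.

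The longest run, of 6 regions over 46132 bp at chromosome 8, 123574366 to 123620497, stood in the array of 5S ribosomal RNA genes between Gas8 and Rhou. Each of its regions overlapped a 5S gene, and their folds were low, 2.27 to 3.11 in Snf5 CKO 1 and 2.12 to 2.95 in Snf5 CKO 2. The interval holds 48 of the 61 rRNA genes of the autosomes, which are near-identical copies, so reads cannot be assigned to one of them with certainty. It also had 3 kept and 2 lost regions.

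Of the other long runs, that beside Smarcad1, a chromatin remodeller gene, had 5 regions over 51073 bp on chromosome 6, 17.5 to 68.2 kb from the gene, with folds of 3.35 to 4.75 and 2.95 to 4.81 in Snf5 CKO 1 and 2. A run of 5 on chromosome 5, over 104837 bp, lay among copies of the Speer4e family, with folds of 2.09 to 2.94 and 2.28 to 3.24. The Prdm14 regions formed a run of 4 over 53482 bp. Runs of 4 also lay beside Pgk2, a gene for a glycolytic enzyme of male germ cells, and between Gm5681 and Vmn1r234, both on chromosome 17. Among the runs of 3, named after their values were seen, one lay 15.8 to 25.8 kb from Dmrt1, a sex determination gene of the gonad on chromosome 19, with folds of 3.0 to 6.12 and 3.01 to 5.51.

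Long non-coding RNA genes overlapped 230 members (12.2%), against 18.1% of kept, 24.4% of lost and 15.7% of all intergenic regions. Such shares also depend on the width of the regions, with medians of 442, 790, 537 and 371 bp in that order. Transfer RNA genes, which bring amino acids to the ribosome, overlapped 19 members (1.01%), against 1.82% of kept, 0 lost and 0.574% of all intergenic regions. Of these, 6 were on chromosome 13, where the main tRNA and histone gene cluster lies, with folds of 3.33 to 4.55 in Snf5 CKO 1. Pseudogenes overlapped 30 members (1.59%, against 2.95% of all intergenic regions), rRNA genes 6 (0.318% against 0.123%), and small nuclear and small nucleolar RNA genes 0 (against 0.143% and 0.0925%). A single miRNA gene, Mir187 on chromosome 18, lay in a member, with folds of 5.78 and 3.95.

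The regions were spread over all 19 autosomes. Their density ran from 0.874 per intergenic Mb on chromosome 18 to 1.68 on chromosome 13. As a share of the intergenic regions of a chromosome they ran from 5.23% on chromosome 18 to 9.03% on chromosome 1. Per kept intergenic region there were 0.301 on chromosome 12 and 0.64 on chromosome 10.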

How the data were processed

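ATAC-seq cuts open chromatin with a transposase that inserts sequencing adapters. Per the submitters' processing notes, the build was mm10 and the tools were MACS2 2.2.7.1, Picard 2.25.2, SAMtools 1.10, Bowtie2 2.4.2 and Trim Galore 0.6.5. Their role and order, duplicate removal, shift of read ends and peak thresholds were not given in the sources used here. Reads of 50 bp are given per the labels. The authors deposited 1 list of broad peaks per library, with a score, a fold enrichment over background (a ratio), and −log10 p and −log10 q for each peak. They describe or filter peaks within a list only. No depth is given, so sampling error of a single peak is unknown.

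From these lists, merging, distances and counts were computed in Python 3.11.15 with pandas 2.3.3 and scipy 1.17.1, checked on simulated peaks. Genes and promoter sequences are from RefSeq GRCm38.p6, whose coordinates are those of mm10. Promoter windows were aligned locally with Biopython 1.88 (match 1, mismatch −1, gap opening −2, gap extension −1). The gene table gives no strand, and strand was taken from the promoter table where it lists the gene. Libraries were compared by exact permutation tests. Beyond the promoter windows no region sequence was read, since no genome was used here.

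The members and gene lists were chosen with earlier results of these data known. Named regions are the 10 strongest by weaker fold, the 5 farthest from a gene, the 5 longest runs and the 3 fullest intervals. Named genes are their neighbours, the 10 genes nearest to most members and up to 4 genes of each list. All 12 genes of the germ cell list with a gained region, and those with other intergenic regions only, were added. So were the lncRNA windows, Mir187, Gdf3 as a neighbour of Dppa3, Dmrt1, the edges of the rule and tied runs and intervals. Alternatives varied merging, overlap, −log10 q, list length, gene distance, gene set and libraries.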

Additional observations from a re-analysis of the deposited data

Results flagged for a closer look

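The X chromosome lies outside the choice of chromosomes 1 to 19. It held 156 intergenic regions with a peak in both Snf5 CKO libraries and in neither Control library, 9.06% of its 1722 intergenic regions, beside 384 kept and 42 lost ones. This was marked because the signal appears in data that none of the comparisons uses. No test was made.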

How the results depend on the processing

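Merging across gaps of up to 200 bp, or asking for 50% of a region's bases to be covered, moved none of the 5 values of the gained regions beyond its margin. With each list limited to peaks with a −log10 q of 3 or more there were 1142 members, at a median of 33030 bp from a gene, with 31.1% in gene-free intervals of at least 500 kb, 17.1% with a neighbour within 50 kb and 15 nearest to germ cell list genes. With that threshold for presence in Snf5 CKO alone, these values were 810, 35138 bp, 31.5%, 15.3% and 12. Lists of the same length gave 32630 bp and 31.7%. A distance of over 5 kb from gene ends gave 51624 bp and 38.2%. All RefSeq genes gave 15556 bp, 6.92%, 20% and 7. Intervals of at least 1 Mb held 21.5%, and neighbours within 20 kb and 100 kb gave 15.2% and 31.4%. The cause of these shifts was not tested.

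Leaving out 1 library at a time gave 2251 to 9871 members, a median distance of 40166 to 52364 bp, 34.1% to 41.2% in such intervals, 23.6% to 53.1% with a neighbour, and 25 to 55 nearest to germ cell list genes. The count of members moved by over 1.5 times without Control 2 (2849) and without Snf5 CKO 2 (9871), and the count at germ cell list genes without Snf5 CKO 2 (55, or 0.557% of members against 0.532% of all intergenic regions). By construction fewer libraries leave fewer conditions to meet. The count and share at germ cell list genes and their alternatives were chosen after seeing the data.

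The differences between libraries kept their sign in all 9 alternatives each, and none could pass 0.05. The replicate block is among the 9 and by construction could not change the sign. With lists of the same length the median folds of the groups overlapped (exact permutation test, p = 0.667). The share in long intervals differed by 5.18 points with a −log10 q of 3 or more, 5.67 with lists of the same length and 3.5 with all RefSeq genes, against 9.83. Leaving out 1 library gave 2.02 to 10.5 points for the intergenic share, 0.148 to 0.377 for median fold and 9.03 to 10.6 points for the share in long intervals. With the replicate number as a replicate block the differences were 6.24, 0.263 and 9.83 (exact paired permutation test, p = 0.5, the smallest possible). Libraries with the same number did not deviate together in the bases that peaks covered in kept regions (correlation −0.02 over 18408 regions). This value cannot decide whether libraries with the same number were prepared together. Unknown depth limits every statement on regions without a peak.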
